A study of Arabidopsis thaliana with 15 samples.

Results

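Photosynthesis depends on proteins made from nuclear genes and imported into the chloroplast. Antenna proteins of the light-harvesting complexes capture light for photosystem II and photosystem I. Photosystem II splits water, plastocyanin carries electrons to photosystem I, and the enzyme Rubisco fixes carbon dioxide. Cells of the shoot meristem hold small plastids, which turn into chloroplasts as organs form. The MYB3R transcription factors are known for binding genes of mitosis and cytokinesis, and photosynthesis genes have no known role in the cell cycle.

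The genes described here were 40 of 27444 nuclear protein-coding genes of Arabidopsis thaliana. They were chosen by locus for their annotated function: light-harvesting proteins, the oxygen-evolving complex, subunits of photosystem I, plastocyanin, and Rubisco with its activase. Whether MYB3R peaks lay near them was read from ChIP-seq of dissected inflorescence meristems, in which a GFP-tagged factor was precipitated with an anti-GFP antibody. All plants were in the Col0 background and carried a transgene driven by the promoter of its own gene: pMYB3R1::GFP-MYB3R1 with 3 ChIP libraries, pMYB3R4::GFP-MYB3R4 with 3, and pMYB3R4::GFP-MYB3R4mNES with 2. The labels leave mNES unexplained, and the letters NES commonly stand for nuclear export signal. Plants were grown with 16 h of light and 8 h of darkness and harvested at a stem length of about 1 cm. No treatment was given. There was no ChIP from untagged plants among the samples, so signal that does not depend on the tagged protein cannot be told apart from binding. Whether replicates were grown separately is not in the labels, and the spread between them may be technical.

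Each library had 1 list of peaks called over input, but which input sample served which ChIP library is not stated, and 2 MYB3R4 input samples stand beside 3 MYB3R4 ChIP libraries. A gene was counted as called in a library when the summit of a peak lay from 1000 bp outside to 200 bp inside either of its annotated ends. The lists differed widely in length. They held 11478, 19655 and 7089 nuclear peaks in MYB3R1 replicates 1, 2 and 3, but 786, 2717 and 456 in those of MYB3R4 and 227 and 256 in those of MYB3R4mNES. Read depth is unknown, and a gene with no peak is one not called in that list. The peaks in the list of MYB3R4mNES replicate 1 carried the name of a MYB3R4 library (0 of 308 bore the name of their own file), although the list shared 0 peaks of the same start and end with MYB3R4 replicate 3. Results for MYB3R4mNES therefore name each library.

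Photosynthesis genes were called in the MYB3R1 libraries more often than genes in general, and few or none were called in the other libraries. In MYB3R1 replicate 1, 34 of the 40 genes were called (85%), where 43.6% of all genes were. In replicate 2 it was 37 (92.5%) against 65.9% of all genes, and in replicate 3 it was 26 (65%) against 29.5%. The mean share called over the 3 MYB3R1 libraries was 80.8% ± 14.2 (SD, n = 3), and 46.3% ± 18.3 for all genes. The share of photosynthesis genes was the higher in each of the 3 libraries, while both shares followed the length of the list. Counted by gene, 34 of 40 were called in at least 2 MYB3R1 libraries (85%, against 44.8% of all genes) and 26 in all 3 (65%, against 26.9%). Another 8 were called in exactly 2 (20%, against 17.9% of all genes), 3 in 1 library (7.5%, against 22.5%) and 3 in none (7.5%, against 32.7%).

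In the MYB3R4 libraries, 0 of the 40 genes were called in replicate 1 (1.29% of all genes), 6 in replicate 2 (15%, against 9.12%) and 0 in replicate 3 (1.3%). All 6 were called in the library with the longest MYB3R4 list, so that 6 genes were called in at least 1 MYB3R4 library (9.64% of all genes) and 0 in at least 2 (1.4%). Without replicate 2 no photosynthesis gene was called for MYB3R4. In MYB3R4mNES, 0 of 40 were called in replicate 1 (0.612% of all genes) and 0 in replicate 2 (0.747%), so 0 were called in both (0.434%). The mean share was 5.0% ± 8.66 (SD, n = 3) for MYB3R4 and 0% in both MYB3R4mNES libraries, which differed by less than the spread between the MYB3R4 libraries.

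**Figure D1:**
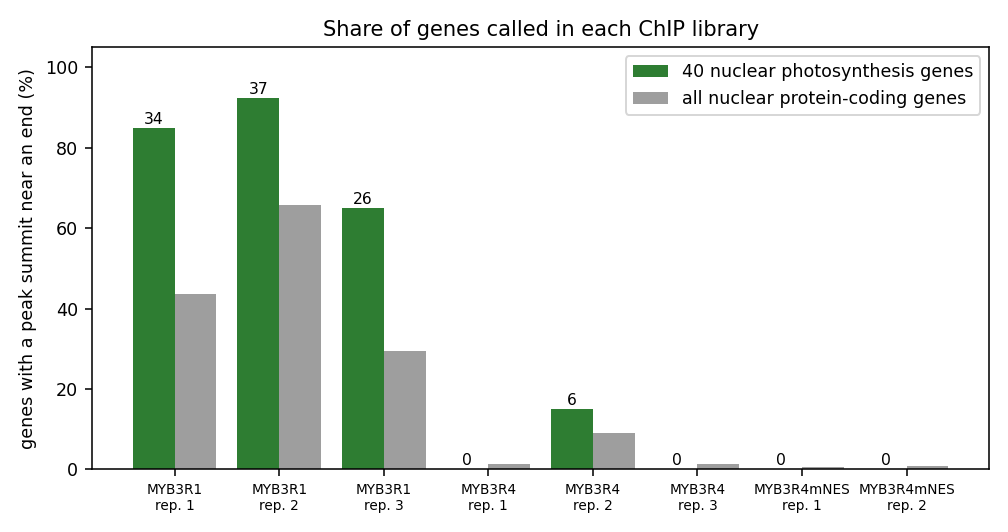
Share of the 40 nuclear photosynthesis genes (green) and of all 27444 nuclear protein-coding genes (grey) with a peak summit near a gene end in each of the 8 ChIP libraries, in percent. Numbers above the green bars are the photosynthesis genes called, from 26 to 37 in the MYB3R1 libraries, 6 in MYB3R4 replicate 2 and 0 elsewhere.

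The share called in MYB3R1 minus that in MYB3R4 was 75.8 percentage points for the photosynthesis genes and 42.4 for all genes. These differences were 81.2 and 49.5 among libraries whose files follow 1 style of name (replicates 1 and 2 of both factors) and 65.0 and 28.2 among the replicate 3 libraries, which follow the other. Both MYB3R4mNES files also follow that other style, in which 0 photosynthesis genes were called for MYB3R4 or MYB3R4mNES. The styles were thus not balanced between MYB3R4 and MYB3R4mNES. Of the 40 genes, 20 were called in every MYB3R1 library but for MYB3R4 in none (50%, against 21.2% of all genes). For each of these the exact two-sided permutation test of called state over libraries gave p = 0.10, the smallest that 3 against 3 libraries allow. The adjusted p was 0.472 (Benjamini-Hochberg over 27444 genes). Of all genes, 0 passed an adjusted 0.05 in this exact permutation test and 0 had an unadjusted p under 0.05.

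The difference between the factors depended on list length. With every library limited to its 227 strongest peaks by p-value, 1 photosynthesis gene was called in each MYB3R1 library, where 1.16%, 1.18% and 1.19% of all genes were. In all 3 it was PSBQA, which codes for a protein of the oxygen-evolving complex. In MYB3R4 replicate 2 limited in the same way, LHCB6 alone was called (0.882% of all genes). The difference between MYB3R1 and MYB3R4 was then 1.67 percentage points, and PSBQA alone was called in all MYB3R1 and no MYB3R4 lists (0.455% of all genes). With 7089 peaks in each MYB3R1 list, 26, 30 and 26 photosynthesis genes were called, where 29.8%, 30.9% and 29.5% of all genes were, so the excess over all genes in MYB3R1 was present at a common list length of that size. With −log10 q of at least 10, 21, 37 and 8 photosynthesis genes were called in the 3 MYB3R1 libraries, where 24.6%, 58.4% and 12.6% of all genes were. At that threshold 22 were called in at least 2 of these libraries (25.1% of all genes), and 7 in all of them without a MYB3R4 call (10.3%).

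Peaks at the photosynthesis genes were of ordinary height. Fold enrichment over input at the summit, as given by the authors, had a median of 3.19 over the 34 called genes in MYB3R1 replicate 1, 3.90 over 37 in replicate 2 and 2.17 over 26 in replicate 3. Over all called genes it was 3.19, 3.09 and 2.29. Ranked among all called genes of the same library, the photosynthesis genes had a median percentile of 49.7, 72.1 and 39.3, and 2, 3 and 2 of them reached the 90th percentile (5.88%, 8.11% and 7.69% of those called, where by construction about 10% of all called genes do). Their middle was thus at the library's own middle in replicate 1, above it in replicate 2 and below it in replicate 3.

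For scale, A- and B-type cyclin genes, which drive cell division, were taken by symbol (18 genes). Of these 13, 15 and 11 were called in the 3 MYB3R1 libraries, with median percentiles of 98.5, 97.3 and 98.1. Cytochrome P450 genes by symbol, a large family of metabolic enzymes (224 genes), were called 56, 111 and 26 times, with median percentiles of 24.1, 35.3 and 36.2. As shares these calls were 72.2%, 83.3% and 61.1% of the cyclins and 25.0%, 49.6% and 11.6% of the P450 genes, with 85%, 92.5% and 65% of the photosynthesis genes above both. The medians of the photosynthesis genes lay below those of the cyclins in all 3 libraries, but the cyclins spread widely, from 2.87 to 99.7 in replicate 1, 19.0 to 99.9 in replicate 2 and 31.2 to 99.8 in replicate 3, so that some lay below the photosynthesis median.

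**Figure D2:**
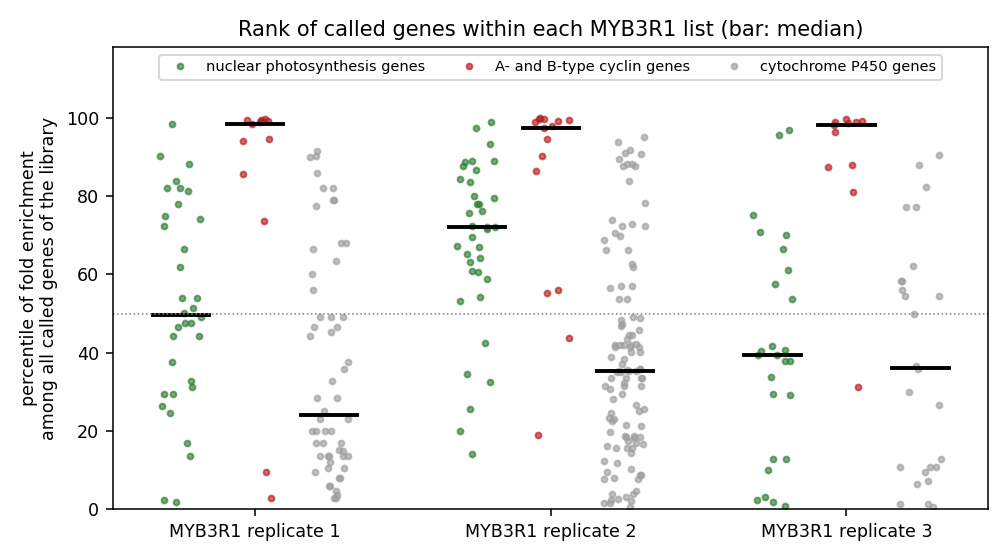
Percentile of fold enrichment among all called genes of the same MYB3R1 library, with 1 point per called gene; horizontal spread is only for display, black bars are medians and the dotted line is the 50th percentile. Photosynthesis genes (green) have medians of 49.7, 72.1 and 39.3, A- and B-type cyclins (red) of 98.5, 97.3 and 98.1, and cytochrome P450 genes (grey) of 24.1, 35.3 and 36.2.

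The antenna of photosystem I is built from LHCA proteins. All 4 of its genes among the 40 were called in MYB3R1 replicates 1 and 2 (43.6% and 65.9% of all genes), and 3 of 4 in replicate 3 (29.5%). LHCA1 (AT3G54890) had fold enrichments of 3.97, 3.77 and 1.89 in replicates 1, 2 and 3, LHCA4 (AT3G47470) of 3.20, 5.02 and 2.45, and LHCA2 (AT3G61470) of 2.66, 3.67 and 2.18. The summits at LHCA4 lay within 73 bp of the gene end in each library, whereas those called for LHCA3 (AT1G61520), with 3.24 and 3.43 in replicates 1 and 2, lay 957 and 938 bp outside, nearer to another gene.

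The major antenna of photosystem II, the trimeric light-harvesting complex, is encoded by the LHCB1, LHCB2 and LHCB3 genes. Of the 8 such genes among the 40, 5 were called in replicate 1 (43.6% of all genes), 7 in replicate 2 (65.9%) and 5 in replicate 3 (29.5%). The same 5 were called in each of these libraries. LHCB1.4 (LHB1B1, AT2G34430) and LHCB1.5 (LHB1B2, AT2G34420) are neighbours, and a single summit between them, with fold enrichments of 4.58, 5.05 and 2.15, was the highest for both. It lay 71, 126 and 97 bp from LHCB1.5 but 968, 913 and 942 bp from LHCB1.4, so calls from this summit are not independent. In replicate 1 LHCB1.4 also had a lower peak (3.97) with its summit 74 bp inside the gene and in no other window. LHCB1.3 (CAB1, AT1G29930) had 3.11, 3.45 and 2.19, LHCB1.1 (CAB2, AT1G29920) 2.75, 3.88 and 2.10, and LHCB3 (AT5G54270) 2.81, 3.52 and 2.20. The summit at LHCB3 kept its place to within 9 bp over the 3 libraries. LHCB2.1 (AT2G05100) and LHCB2.2 (AT2G05070) were called in replicate 2 only, at 2.12 and 2.44, among the lower peaks of that list.

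LHCB1.2 (CAB3, AT1G29910) was called in no library. The nearest MYB3R1 summits lay 2602, 2593 and 2466 bp away and belonged to LHCB1.1, the next copy in the same tandem cluster. No peak of any library overlapped LHCB1.2 itself. The sources do not state how reads matching several of these near-identical genes were treated, so the lack of a peak at such a copy is uncertain.

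The minor antenna proteins LHCB4, LHCB5 and LHCB6 link the trimers to the photosystem II core. All 4 of their genes among the 40 were called in all 3 MYB3R1 libraries (26.9% of all genes). LHCB4.2 (AT3G08940) had fold enrichments of 4.70, 4.61 and 2.41, LHCB4.1 (AT5G01530) of 4.09, 4.82 and 2.17, LHCB6 (AT1G15820) of 4.27, 4.29 and 2.06, and LHCB5 (AT4G10340) of 3.30, 4.21 and 2.67. In replicate 3 a higher peak at LHCB4.1 (2.55) had its summit 218 bp inside the gene, just past the window. The summits at LHCB5 lay in the window of AT4G10330 too, which was the nearer gene in replicates 1 and 2. LHCB6 and LHCB4.1 were also called in MYB3R4 replicate 2, at 3.43 and 1.97.

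LHCB6 was the strongest photosynthesis gene for MYB3R4. Its peak in replicate 2 (TAIR10, chr1:5447669-5448270) ranked 96 by p-value among that library's 2717 nuclear peaks. The summit lay 82 bp outside the gene end and 23, 48 and 109 bp from the MYB3R1 summits of replicates 1, 2 and 3, with overlapping peaks throughout. The same position lay in the windows of AT1G15825 and AT1G15830, and the gene nearest to the summit was LHCB6 in MYB3R1 replicate 1 and MYB3R4 replicate 2, AT1G15830 in MYB3R1 replicate 2 and AT1G15825 in MYB3R1 replicate 3.

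The oxygen-evolving complex is a group of proteins that shields the site of water splitting. All 5 of its genes among the 40 were called in MYB3R1 replicates 1 and 2 (43.6% and 65.9% of all genes). PSBQA (AT4G21280) and PSBO1 (AT5G66570) were called also in replicate 3 (29.5% of all genes). PSBQA had the highest fold enrichment of the 40 genes in each MYB3R1 library, 9.95, 8.63 and 5.40. Its peak (chr4:11333822-11334682 in replicate 1) ranked 142, 129 and 162 by p-value. The summit lay 111, 119 and 132 bp outside PSBQA, between it and ATK1, a kinesin gene of the mitotic spindle. ATK1 was the nearer of the neighbours in all 3 libraries, so this peak cannot be assigned to PSBQA.

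PSBO1, the manganese-stabilising protein, had 3.13, 3.66 and 2.05. Its paralogue PSBO2 (AT3G50820) had 3.13 and 3.91 in replicates 1 and 2 and was not called in replicate 3. PSBP-1 (AT1G06680) had 4.03 and 3.90, and PSBQ-2 (AT4G05180) 2.50 and 3.37, in the same libraries. A peak in replicate 3 did lie within PSBP-1, with its summit 274 bp inside the gene (fold enrichment 2.09), just outside the window.

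Photosystem I subunits D, E, F, G, H, K, L, N and O are nuclear-encoded proteins that dock ferredoxin and plastocyanin or bind antenna proteins. Of 12 genes, 11 were called in replicate 1 (43.6% of all genes), 12 in replicate 2 (65.9%) and 8 in replicate 3 (29.5%). PSAE-2 (AT2G20260) had the highest values, 5.43, 6.99 and 4.67, from a summit 101, 110 and 89 bp outside the gene that was shared with AT2G20250 and nearer to it. PSAD-1 (AT4G02770), a ferredoxin-docking subunit, had 5.14, 5.71 and 2.76. Its summits were within 100 bp of the gene end and also in the window of AT4G02760, which was the nearer gene in replicate 3. PSAK (AT1G30380), which binds antenna, had 3.72, 4.09 and 1.63.

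PSAL (AT4G12800), needed for trimers of photosystem I in cyanobacteria and for docking of antenna in plants, had 3.54, 3.56 and 2.35 for MYB3R1. It was also called in MYB3R4 replicate 2, at 2.38 (chr4:7521042-7521548). That summit was 112, 97 and 158 bp from the MYB3R1 summits, and PSAL was the only gene in whose window any of these 4 summits lay. No second gene was thus in reach where the peaks of both factors overlapped at PSAL.

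The other photosystem I genes had similar or lower values. PSAH2 (AT1G52230) had 3.30, 4.07 and 2.17, PSAH-1 (AT3G16140) 3.05, 3.22 and 1.72, PSAG (AT1G55670) 2.75, 3.59 and 1.74 and PSAN (AT5G64040) 2.78, 3.18 and 1.89. PSAF (AT1G31330) had 3.17 and 4.55, PSAO (AT1G08380) 2.69 and 4.32 and PSAE-1 (AT4G28750) 2.92 and 2.66 in replicates 1 and 2, and PSAD-2 (AT1G03130) 2.60 in replicate 2 only. For PSAF a peak of replicate 3 (2.66) lay 277 bp inside the gene, again just past the window. PSAF, the plastocyanin-docking subunit, had no MYB3R4 summit in its window, but all 3 MYB3R4 libraries had one farther out, 1355, 1340 and 1410 bp outside the gene, with fold enrichments of 2.31, 2.57 and 2.10. These lay in the windows of AT1G31335 and of RUB1, a gene for a ubiquitin-like protein. With a window of 2000 bp PSAF was the 1 photosynthesis gene called in at least 2 MYB3R4 libraries (2.08% of all genes), as also when any part of a peak counted (1.83%).

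**Figure D3:**
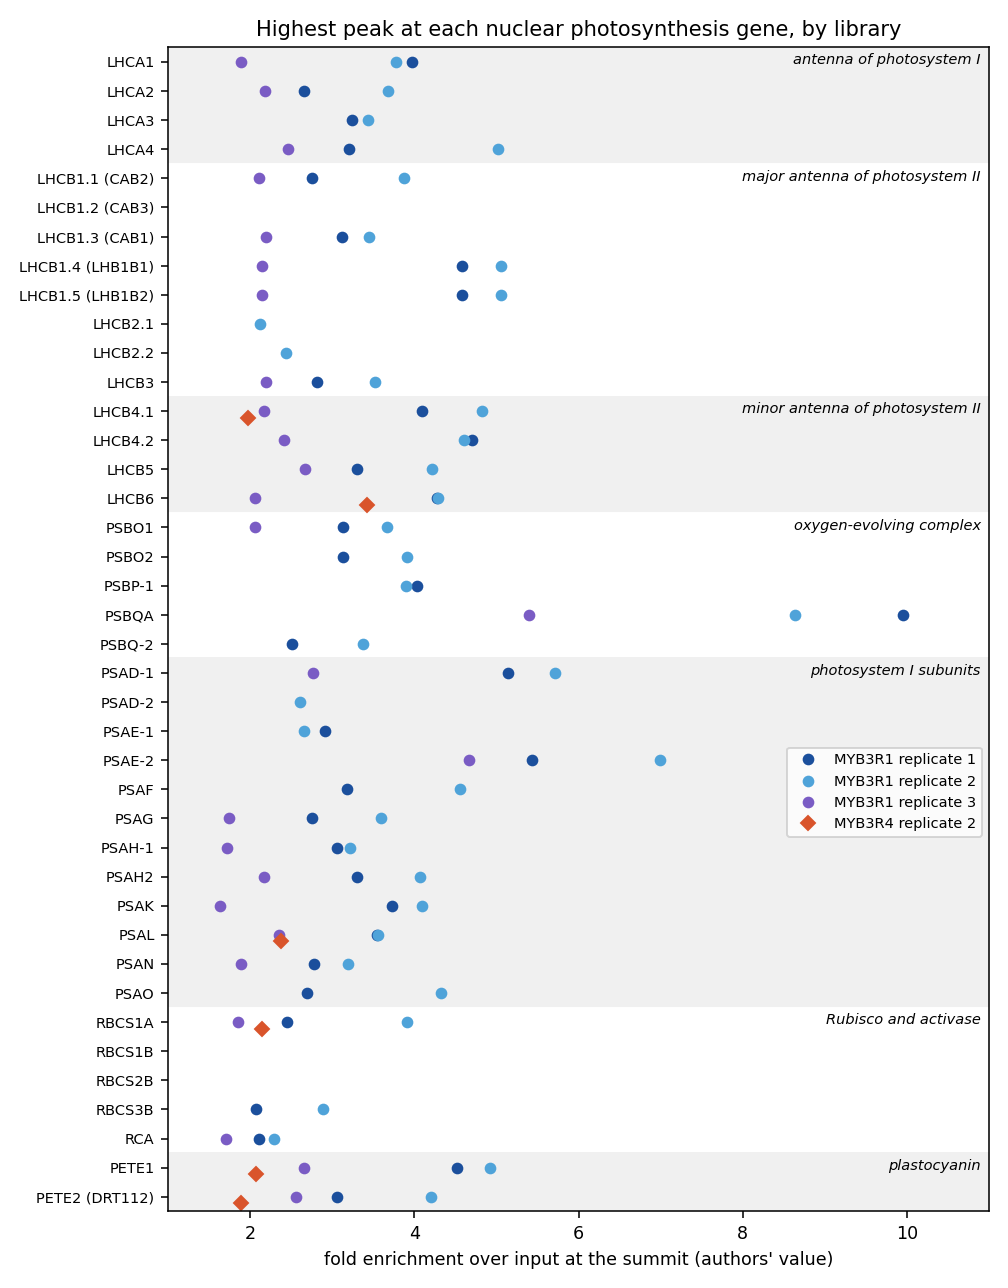
Fold enrichment over input at the highest peak summit in the window of each of the 40 genes, in the 3 MYB3R1 libraries (circles) and MYB3R4 replicate 2 (diamonds), with genes grouped by role; a gene with no point was not called. PSBQA (5.40 to 9.95) has the highest point of each MYB3R1 library and PSAE-2 (4.67 to 6.99) the next, although points of other genes lie within the range of PSAE-2. LHCB1.2, RBCS1B and RBCS2B have no point, and the replicate 3 points lie to the left.

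Plastocyanin, the soluble copper protein between cytochrome b6f and photosystem I, has a pair of genes. Both were called in all 3 MYB3R1 libraries (26.9% of all genes) and in MYB3R4 replicate 2 (9.12%). PETE1 (AT1G76100) had 4.52, 4.93 and 2.65 for MYB3R1 and 2.07 for MYB3R4, and PETE2 (DRT112, AT1G20340) had 3.05, 4.20 and 2.56 for MYB3R1 and 1.89 for MYB3R4. At PETE1 the MYB3R4 summit was 456, 338 and 519 bp from the nearest MYB3R1 summits, at the opposite end of the gene from the highest one, although the peaks overlapped. At PETE2 it was 139, 131 and 771 bp away, overlapped the highest MYB3R1 peak in replicate 1 and a lower one in replicate 2, and overlapped none in replicate 3.

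Of the 5 genes for Rubisco and its activase, 3 were called in replicate 1 (60%, against 43.6% of all genes), 3 in replicate 2 (60%, against 65.9%) and 2 in replicate 3 (40%, against 29.5%). RCA (AT2G39730), the activase that removes inhibitors from Rubisco, had 2.10, 2.28 and 1.70, some of the lowest values of all 40 genes. RBCS3B (AT5G38410) had 2.08 and 2.88 in replicates 1 and 2. The other tandem copies of the small subunit, RBCS1B (AT5G38430) and RBCS2B (AT5G38420), were called in no library. Their nearest MYB3R1 summits lay 4690, 4623 and 19321 bp and 2430, 2363 and 22570 bp away, and no peak overlapped either gene. As for LHCB1.2, the handling of reads shared between copies makes this uncertain. With LHCB1.2, 3 of the 40 genes (7.5%) were called in no library, against 32.1% of all genes.

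RBCS1A (AT1G67090), the separate small-subunit gene on chromosome 1, had 2.44, 3.91 and 1.86 within the window. A stronger peak lay inside this gene, with fold enrichments of 6.35, 6.01 and 4.27 (chr1:25048997-25050396 in replicate 1). Its summit was 232, 212 and 249 bp from the gene end and so missed the inner limit of 200 bp in every MYB3R1 library. MYB3R4 replicate 2 had a peak at the same place (2.15, with its summit 163 bp inside), which was 69, 49 and 86 bp from the MYB3R1 summits. Of the peaks called for the 40 genes, those of PSBQA were higher than this one in all 3 MYB3R1 libraries and those of PSAE-2 in replicates 2 and 3.

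Summits at photosynthesis genes clustered closely around the gene ends. In the 3 MYB3R1 libraries, 82.4%, 89.2% and 88.5% of the called photosynthesis genes had the summit of their highest peak within 200 bp of an end, where 62.1%, 63.8% and 61.5% of all called genes did. Median gene length was 1411.5 bp for the 40 genes and 2078 bp for all genes, and its part in this difference was not tested. The gene table gave no strand, so starts and ends of genes could not be separated.

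Positions repeated between libraries. Of the 26 genes called in all 3 MYB3R1 libraries, 22 had summits within a range of 200 bp (84.6%, against 80.5% of all such genes), and the median range was 103.5 bp (90 bp for all). The exceptions were PSBO1 with a range of 2069 bp, PETE2 with 1869 bp, PSAH-1 with 960 bp and RBCS1A with 527 bp. At PSBO1 and PETE2 the highest peak changed from one end of the gene to the other. The order of fold enrichments over the 26 genes had a Spearman correlation of 0.80 between replicates 1 and 2, 0.54 between 1 and 3 and 0.60 between 2 and 3. Over all 7383 genes called in the 3 libraries it was 0.85, 0.70 and 0.74. These values describe genes of the same libraries, and genes are not independent replicates.

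**Figure D4:**
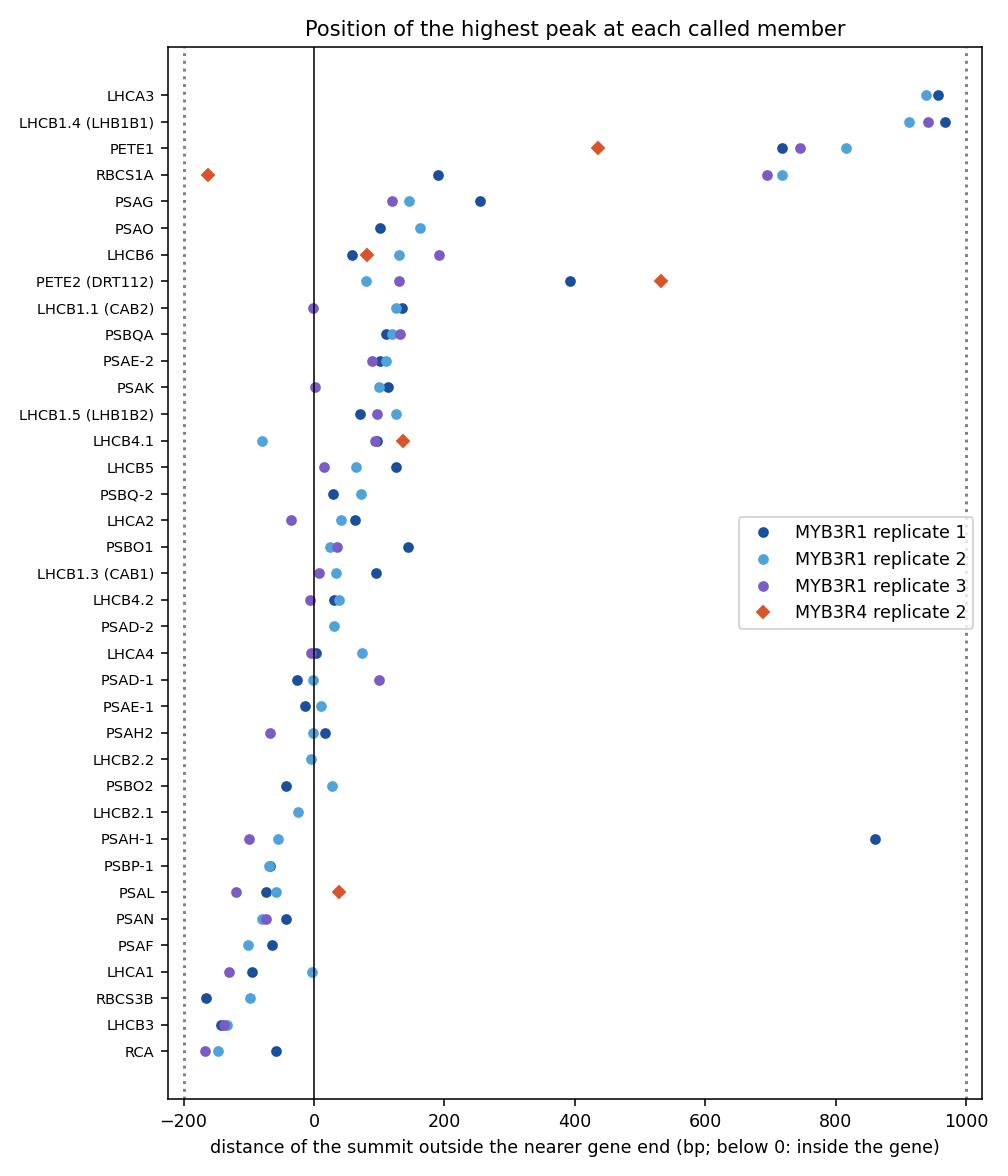
Distance in bp of the highest peak summit from the nearer end of each called photosynthesis gene, with positive values outside the gene and dotted lines at the limits of the window (200 bp inside and 1000 bp outside). Most genes have all their MYB3R1 points within 200 bp of the end. The highest peaks of LHCA3, LHCB1.4 and PETE1 have summits 717 bp or more away in every MYB3R1 library that called them. Those of PSAH-1 in MYB3R1 replicate 1 (861 bp) and of RBCS1A in replicates 2 and 3 (717 and 695 bp) were also distant. PETE1 in every MYB3R1 library and LHCB1.4 in replicate 1 also had a lower peak within 200 bp of an end. The MYB3R4 points (diamonds) of RBCS1A, PETE1 and PETE2 lie apart from the MYB3R1 points on this axis, which does not separate the ends of a gene. At RBCS1A the MYB3R4 summit was 69, 49 and 86 bp from stronger MYB3R1 summits, which lie past the inner limit and are not drawn.

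Many summits lay in reach of a second gene, as for genes in general. For 30 of the 40 genes (75%) the nearest gene lay within the window, against 80.5% of all genes. Of the 37 genes called in a MYB3R1 library, the photosynthesis gene was the nearest to the summit of its highest peak in every calling library for 24. For 7 another gene was nearer in every one (PSBP-1, PSAO, PSAG, LHCA3, PSAE-2, LHCB1.4 and PSBQA), and for 6 it varied. The summit lay in the window of another gene in every calling library for 20 genes and in none for 14. By library, 55.9%, 62.2% and 65.4% of the called photosynthesis genes shared their summit in MYB3R1 replicates 1, 2 and 3, where 67.4%, 66.2% and 69.8% of all called genes did. With each summit given only to its nearest gene, 26, 27 and 18 of the 40 were called in MYB3R1 replicates 1, 2 and 3, where 30.8%, 49.3% and 20% of all genes were, and 13 were called in all MYB3R1 and no MYB3R4 libraries (11.9% of all genes).

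Duplicated genes were compared in 8 pairs, with no count for other pairs of genes, so nothing particular to paralogues can be read from them. In 5 of 8 pairs of paralogues, the same gene had the higher fold enrichment in all 3 MYB3R1 libraries, an uncalled gene being counted as the lower. These were PSAD-1 over PSAD-2, PSAE-2 over PSAE-1, PSAH2 over PSAH-1, PSBQA over PSBQ-2 and PETE1 over PETE2. In the cases of PSAE-2 and PSBQA the higher peak was the one nearer to a neighbouring gene.

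The rest of the photosynthetic pathway, from 5 lists of 52 further genes, was also read for MYB3R1. In at least 2 MYB3R1 libraries, 37 of 52 were called (71.2%, against 85% of the 40 genes and 44.8% of all genes). By list, these were 8 of 11 other antenna and photosystem genes, 8 of 8 for electron transfer and ATP synthase, 8 of 13 for the Calvin cycle, 10 of 12 for chlorophyll synthesis and 3 of 8 regulators of photosynthetic genes (37.5%). Of the 8 regulators, 2 were called in replicate 1 (25%, against 43.6% of all genes), 8 in replicate 2 (against 65.9%) and 3 in replicate 3 (37.5%, against 29.5%). NPQ4, which senses lumen acidity, and GAPB of the Calvin cycle were called in no library.

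The highest values of these lists were those of POR C, which reduces protochlorophyllide in the light during chlorophyll synthesis. POR C had 8.18, 8.07 and 3.69 in MYB3R1 replicates 1, 2 and 3. GUN5, a subunit of magnesium chelatase, had 5.68, 5.37 and 2.73. Among the regulators HY5, a light-signalling factor, had 4.87, 5.84 and 3.30, and GLK1 (GPRI1), an activator of chloroplast genes, 3.16, 3.86 and 2.56. LHCB4.3, a minor antenna gene, had 4.94, 5.46 and 2.44. PSBR, a photosystem II protein, had 5.19, 4.57 and 1.86.

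In the carbon-fixing list, the transketolase gene AT3G60750 had 4.03, 5.76 and 2.74 and PRK, phosphoribulokinase, had 3.91, 4.19 and 2.45 for MYB3R1. PETC, the Rieske protein of cytochrome b6f, had 3.60, 4.59 and 2.38. In all 3 MYB3R1 libraries the summits at GUN5, HY5, GLK1, LHCB4.3, AT3G60750 and PRK also lay in the window of another gene. Those at PSBR and PETC lay in no other window, and that of POR C did so in replicate 1 only.

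Of the 40 photosynthesis and 52 related genes, only FNR2, a leaf ferredoxin-NADP reductase, was called in at least 2 MYB3R4 libraries (1.4% of all genes). FNR2 was called in all 3, at 1.93, 3.09 and 2.50, and had 5.68, 4.93 and 2.35 for MYB3R1. The summits lay 444, 430 and 450 bp outside FNR2 in MYB3R1 replicates 1, 2 and 3, and 421 bp outside in MYB3R4 replicate 2. Each of these summits lay in the window of AT1G20030 too. In MYB3R4 replicate 2 alone, 7 further related genes were called: LHCB4.3 at 1.90, PSBR at 2.14, PETC at 1.95, AT3G60750 at 1.96, RPE (an epimerase of the Calvin cycle) at 2.04, and CRD1 and G4 (both of chlorophyll synthesis) at 2.54 and 2.03. With FNR2 these were 8 of 52 in that library (15.4%, against 9.12% of all genes). The MYB3R4 summits of the 7 lay in the window of another gene too, except at PSBR and PETC. At LHCB4.3 that gene was AT2G40110, where the MYB3R1 summits shared the window of AT2G40095. At G4 the MYB3R4 summit lay 545 bp outside the gene, in the window of SAC8 too, where the MYB3R1 summits lay in no other window. None of the 52 was called in MYB3R4mNES replicate 1 or 2, where 0.612% and 0.747% of all genes were.

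**Figure D5:**
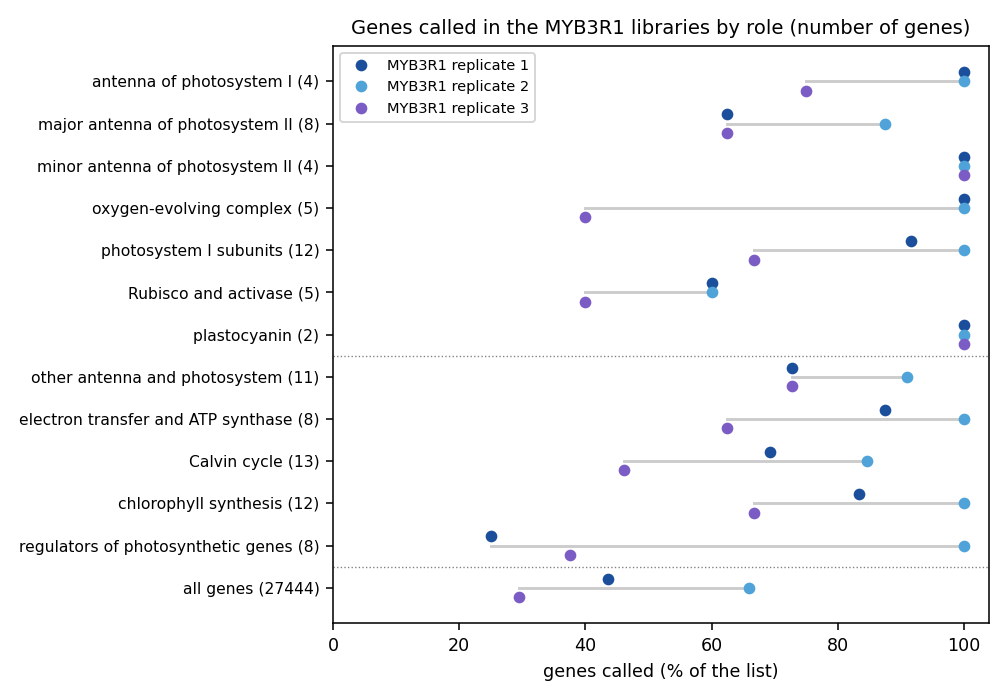
Percent of genes called in MYB3R1 replicates 1, 2 and 3 for each of the 7 roles of the 40 photosynthesis genes (top), 5 lists of related genes (middle) and all genes (bottom), with the number of genes in brackets; grey lines join the lowest and highest replicate. Replicate 2 is the highest or tied for it in each row, minor antenna and plastocyanin genes reach 100% in all 3 libraries, and Rubisco and activase genes reach 40% to 60%.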

How the data were processed

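Peak lists of 8 ChIP libraries were used, and the 7 input samples were not analysed here. Per the submitters' processing notes, FastQC, Trimmomatic, Bowtie2, Picard and the build TAIR10 were used. Which program called the peaks is not stated in the sources used here. Per the file names, reads were extended to 400 bp. The deposited lists hold a score, which is 10 times the −log10 q-value, a fold enrichment (a ratio over input), a −log10 p-value, a −log10 q-value and the summit. These values are the authors' own. Fold enrichment was used only to describe and rank peaks within a list. The lists hold no read counts, so depth is unknown and no interval was given. No columns were left unmapped to a sample.

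Organelle peaks were left out. Genes came from a RefSeq table of the assembly TAIR10.1, which gave names, neighbours and distances, and whose coordinates are not printed. It has no strand, so the window was applied at both ends of a gene. In place, 21.5% to 54.1% of summits per library lay within 500 bp outside a gene end, and 15.0% to 24.7% after moving the genes by 10000 bp. Where a gene had several peaks, the highest by fold enrichment was used. No genome, promoter or protein sequence was used here.

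The 40 genes, their 7 roles and the related lists were chosen with earlier results of these data known, so no p-value was computed over a list. Called state was compared per gene by an exact two-sided permutation test with Benjamini-Hochberg adjustment, tested on simulated data (Python 3.11.15, numpy 2.4.6, pandas 2.3.3, scipy 1.17.1). Named with values in every library were up to 3 genes per role with the highest median fold enrichment among those called in all 3 MYB3R1 libraries, all genes called for MYB3R4, and, of each related list, up to 2 by that median and all called for MYB3R4. Other members are named to account for all 40. The cyclin and P450 genes, taken by symbol, served for scale.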

Additional observations from a re-analysis of the deposited data

How the results depend on the processing

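With −log10 q of at least 10, the difference between MYB3R1 and MYB3R4 in the share of the 40 genes called was 53.3 percentage points in place of 75.8, 22 genes were called in at least 2 MYB3R1 libraries in place of 34, and 7 in all 3 MYB3R1 and no MYB3R4 library in place of 20. With 227 peaks per library these were 1.67, 1 and 1, and the median percentile of fold enrichment, averaged over the MYB3R1 libraries, was 33.7 in place of 53.7, where it is the value of PSBQA alone in each library. Giving each summit to the nearest gene only left 54.2 percentage points and 13 genes. With a window of 2000 bp, or any part of the peak counted, 1 gene (PSAF) was called in at least 2 MYB3R4 libraries in place of 0. A −log10 q of at least 5, a window of 500 bp, and alternatives added after seeing the data (equal lengths within a group, summits anywhere in a gene) left these values within 1.5 times or within the spread of the replicates. Leaving out 1 library at a time gave differences of 70.0 to 83.75 percentage points, 26 to 34 and 20 to 28 genes, and a median percentile of 44.5 to 60.9. Genes called in at least 2 MYB3R4 libraries stayed at 0. MYB3R4 minus MYB3R4mNES was 5.0 percentage points, and 0 to 7.5 with 1 library left out. The window at gene starts alone could not be run without strand. Same-numbered MYB3R1 and MYB3R4 libraries did not deviate together (correlations of -0.083, -0.0495 and 0.0302 over genes), and with a replicate block the differences were 75.8 and 7.5 percentage points. Where near-identical copies share reads, and where read depth sets list length, the lists do not allow a gene without a peak to be read as unbound.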

Other observations

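Photosynthesis genes of the plastid genome are outside the 40. The lists held few peaks on that genome, 1, 0 and 3 in MYB3R1 replicates 1, 2 and 3, 1, 1 and 3 in those of MYB3R4, and 3 and 2 in those of MYB3R4mNES.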
